A study of Mus musculus with 11 samples.

Results

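The genes described here are 10 nucleic acid sensors and adaptors: Ddx58, Ifih1, Dhx58, Mavs, Tlr3, Tlr7, Tlr9, Myd88, Ticam1 and Zbp1. They were found by gene name in the annotation of the arrays, where Dhx58 stands under the older name D11Lgp2e and Mavs under D430028G21Rik. The 10 genes are read by 17 of the 41174 probes. All 17 probes passed the filter on dim signal (2 or more arrays had to call a probe well above background), so all 10 members are among the 21872 genes tested. The study measured total RNA of mouse lung on 11 one-colour Agilent arrays. There were 3 arrays from Foxa3-/- mice challenged with OVA (KO OVA), 3 from littermate controls challenged with OVA (WT OVA), 2 from Foxa3-/- mice given saline (KO saline) and 3 from littermate controls given saline (WT saline). Foxa3 encodes a forkhead transcription factor, and OVA is by background ovalbumin, an egg protein used to provoke allergic airway disease in mice. The labels used here do not give strain, age, sex, the challenge schedule or whether an array holds 1 animal, so the p-values below measure the spread between these samples.

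These genes make up the cell's detectors for foreign or misplaced RNA and DNA. Ddx58 encodes RIG-I and Ifih1 encodes MDA5, helicases that bind viral RNA in the cytosol and signal through Mavs, an adaptor on the mitochondrial outer membrane. Dhx58 encodes LGP2, a relative that lacks the signalling domains and tunes the other helicases. Tlr3 (for double-stranded RNA), Tlr7 (for single-stranded RNA) and Tlr9 (for unmethylated CpG DNA) sit in endosomes. Tlr3 signals through Ticam1, also called TRIF, whereas Tlr7 and Tlr9 signal through Myd88, which also serves most surface Toll-like receptors and the interleukin-1 receptor family. Zbp1 binds nucleic acids in the left-handed Z form and can start necroptosis through Ripk3. Their common outputs are type I interferons and NF-kappaB targets, and interferon in turn raises the genes of several of the sensors.

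The measurements rest on 60-base probes, and 4 are shown because Ddx58 is read at 4 separate places and Ifih1 at 2, so that the same transcript could be checked along its length. Sequences are given 5′ to 3′ as deposited in the scanner files, in lower case with no letter set apart. Positions are those the files give on mouse build mm7, all on the minus strand. The first Ddx58 probe lies at chr4:40367958-40368017, the second at chr4:40348348-40348407 and the third at chr4:40344272-40344331. The Ifih1 probe covers chr2:62537605-62539752, a span of 2148 bases for 60 letters, so its target lies in separate exons. No exon annotation of mm7 was used here for the others.
Ddx58, A_52_P523946: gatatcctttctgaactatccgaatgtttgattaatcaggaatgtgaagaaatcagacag
Ddx58, A_51_P393748: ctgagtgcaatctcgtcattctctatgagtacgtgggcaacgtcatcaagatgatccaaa
Ddx58, A_52_P479001: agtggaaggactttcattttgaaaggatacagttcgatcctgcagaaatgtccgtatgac
Ifih1, A_52_P121468: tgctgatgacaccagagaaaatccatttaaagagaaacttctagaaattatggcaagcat

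Promoter windows of 300 bases (250 before and 50 after the start of the gene, RefSeq, GRCm38.p6) were at hand for 7 of the 10 members: Ddx58, Ifih1, Mavs, Tlr3, Tlr9, Myd88 and Ticam1. They were searched on both strands for the core of the interferon-stimulated response element, written GAAANNGAAA, where N is any base. That core was in 3 of the 7 windows (Ddx58, Ifih1 and Myd88) and in 3.44% of 32841 mouse promoter windows. The 3 matches are shown with their flanks because these members are among those raised by OVA in WT lung below. Ticam1, also raised there, had no match, and no window was at hand for Zbp1, Dhx58 and Tlr7, which were raised too. Capitals mark the match, and each stretch reads 5′ to 3′ along the gene's own strand, the minus strand in all 3 cases. The Ddx58 match is on the opposite strand and so reads TTTCNNTTTC.
Ddx58, chr4:40239804-40239833: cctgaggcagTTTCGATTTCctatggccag
Ifih1, chr2:62646206-62646233: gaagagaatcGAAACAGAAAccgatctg
Myd88, chr9:119340039-119340068: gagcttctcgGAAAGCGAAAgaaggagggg
The Ddx58 match begins 2 bases and the Ifih1 match 32 bases after the first transcribed base, and the Myd88 match begins 40 bases before it. A GAS element (TTCNNNGAA, 8.3% of promoter windows) was found in the Myd88 window, where it overlaps the match above. The kappaB consensus (8.46% of promoter windows) was found in the Tlr3 window. A match describes letters, not a bound site.

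Levels below are log2 signal minus the 75th percentile of the same array, so 0 is that percentile of the array. A level can be compared between arrays for 1 gene, not between genes. Each gene is represented by its brightest probe, and differences are log2 differences with their standard error from 1 limma model over all 11 arrays, with p-values adjusted over the 21872 genes (threshold 0.05). Of each array's probes, 71.08% to 78.85% were well above background. Of the 3 slides, slide 1 and slide 2 carried all 4 groups once each and slide 3 carried all but KO saline. OVA and saline arrays parted on principal component 1 (46.3%), and slide 1 parted from the others on principal component 2 (15.8%), so within-slide differences are given beside the main results. The probe for Foxa3 was well above background on 0 of 5 KO arrays and on 6 of 6 WT arrays. Because the samples are whole lung, more cells of a type and more RNA per cell cannot be told apart in any result below.

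OVA raised 7 of the 10 members in WT lung, against 10.9% of all genes called higher there. The 7 were Zbp1, Dhx58, Ddx58, Tlr7, Ifih1, Myd88 and Ticam1. Their differences ran from 0.44 to 3.49, and the median over the 10 members was 0.76, beside 0.02 over all genes. In KO lung 2 of 10, Dhx58 and Zbp1, passed the test, against 6.45% of all genes called higher, and the median over the members was 0.38, beside -0.01 over all genes. No member was called lower in either genotype, against 1.78% of all genes in KO lung and 7.91% in WT lung. The WT OVA range lay wholly above the WT saline range for those 7 members (22.3% of all genes did so), and the KO OVA range lay above the KO saline range for 6 members (24.5% of all genes) and below it for Mavs and Tlr3 (24.4% of all genes). The 7 calls in WT became 0 without the 4 arrays of slide 1, with differences there of 0.49 to 3.34 and 7 members still at an unadjusted p under 0.05. With 1 array left out at a time 4 to 7 calls were left: 4 without WT OVA 2, WT OVA 3, WT saline 1 or WT saline 2. The 2 calls in KO lung became 0 without slide 1 (2 members at an unadjusted p under 0.05) and 0 without either KO saline array, and with 1 of the other arrays left out 1 to 3 calls were left. With another background correction (normexp) limma called 0 members in either genotype, with 3 in KO lung and 5 in WT lung at an unadjusted p under 0.05. It called 0 of all 21872 genes for OVA there. Without the few spots of bright local background, normexp called 3 members in KO lung and 7 in WT lung. Of all 21872 genes, 1446 and 3653 were then called higher.

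**Figure D1:**
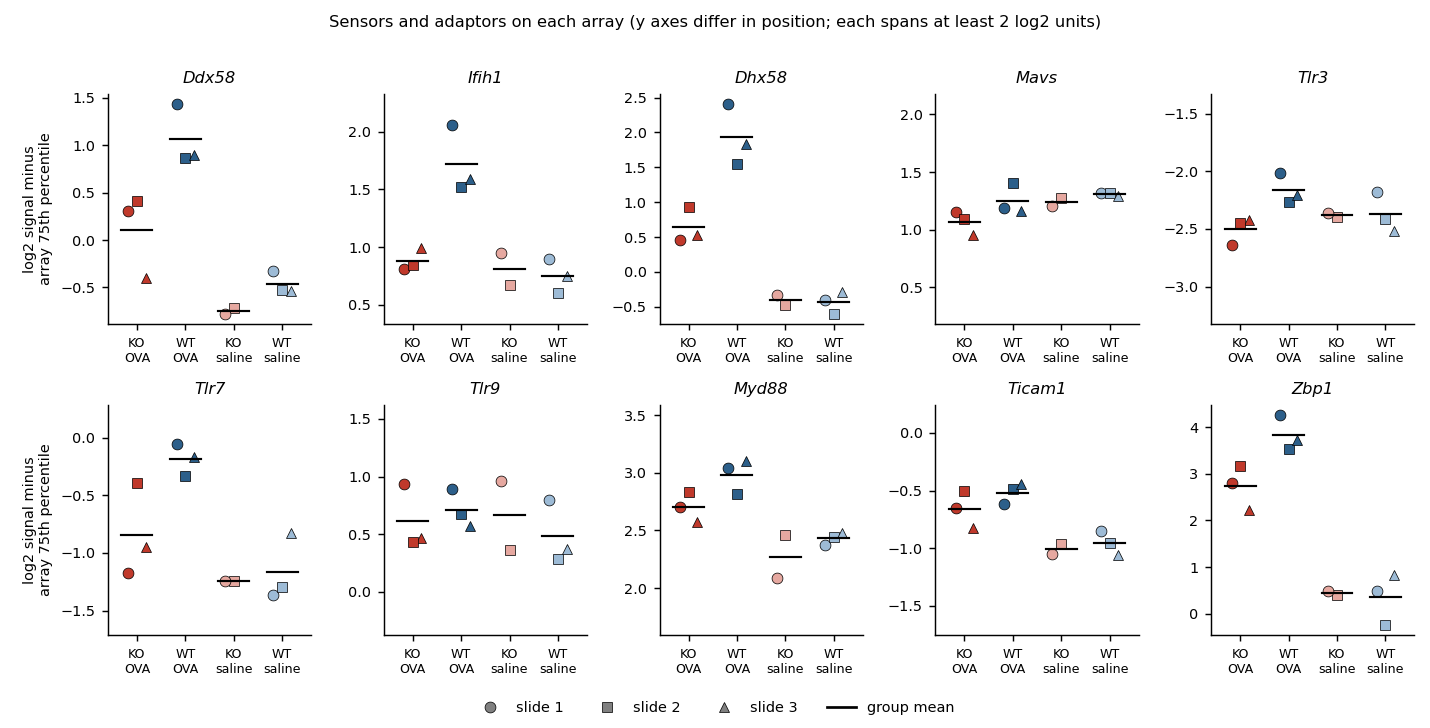
Level of each member on each array (y axis, log2 signal minus the array's 75th percentile) in KO OVA, WT OVA, KO saline and WT saline lung. Symbols give the slide and lines the group mean. All 3 WT OVA arrays lie above every other array for Ddx58, Ifih1, Dhx58, Tlr7 and Zbp1, and the 4 slide 1 arrays lie above the other 7 for Tlr9.

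Among the RIG-I-like receptors, Dhx58 (LGP2) changed most. Its level was 0.45, 0.53 and 0.93 in KO OVA lung, 1.54, 1.84 and 2.41 in WT OVA lung, -0.48 and -0.33 in KO saline lung and -0.40, -0.60 and -0.29 in WT saline lung. Every OVA array lay above every saline array, and every WT OVA array above every KO OVA array. OVA raised Dhx58 by 1.05 ± 0.25 in KO lung (2.06-fold, adjusted p 0.0366) and by 2.36 ± 0.22 in WT lung (5.14-fold, adjusted p 0.00113). Within slides 1 and 2 the rise was 0.79 and 1.41 in KO lung, and within slides 1, 2 and 3 it was 2.81, 2.15 and 2.13 in WT lung. With slide as a block the call in KO lung was lost (1.06, adjusted p 0.0778) and the call in WT lung was kept (adjusted p 0.00477). The KO call was also lost without any 1 of the 3 WT saline arrays, either KO saline array, KO OVA 1 or KO OVA 3.

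Ddx58 (RIG-I) had levels of 0.31, -0.40 and 0.42 in KO OVA lung, 0.87, 0.90 and 1.43 in WT OVA lung, -0.71 and -0.78 in KO saline lung and -0.33, -0.53 and -0.54 in WT saline lung. The second KO OVA array, on slide 3, lay within the WT saline range, and the WT OVA arrays lay apart from all others. OVA raised Ddx58 by 1.53 ± 0.23 in WT lung (2.89-fold, adjusted p 0.00492). In KO lung the difference was 0.86 ± 0.26 (adjusted p 0.0689), with within-slide values of 1.09 and 1.13. It missed the threshold there, and passed it under 5 of the alternative settings. Among these were the fit without the second KO OVA array and, with all arrays kept, the authors' value table (adjusted p 0.0396).

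Ifih1 (MDA5) had levels of 0.81, 0.99 and 0.85 in KO OVA lung, 1.52, 1.59 and 2.06 in WT OVA lung, 0.67 and 0.95 in KO saline lung and 0.90, 0.60 and 0.75 in WT saline lung. The 3 WT OVA arrays stood above the other 8, which overlapped one another whatever the challenge or genotype. OVA raised Ifih1 by 0.98 ± 0.16 in WT lung (1.97-fold, adjusted p 0.00705), with 1.16, 0.92 and 0.84 within the slides. In KO lung the difference was 0.07 ± 0.18 (95% interval -0.33 to 0.48, adjusted p 0.83), so a rise of the size seen in WT lies outside that interval. The direct test of the difference of the OVA effects, given below, did not call Ifih1.

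Mavs, the adaptor that these helicases share, had levels of 1.15, 0.95 and 1.09 in KO OVA lung, 1.40, 1.17 and 1.19 in WT OVA lung, 1.28 and 1.21 in KO saline lung and 1.32, 1.31 and 1.29 in WT saline lung. The whole spread over 11 arrays was small, and the KO OVA arrays were the lowest 3. The OVA difference was -0.18 ± 0.11 in KO lung (95% interval -0.43 to 0.07) and -0.05 ± 0.10 in WT lung (95% interval -0.28 to 0.17), and neither passed the test (adjusted p 0.306 and 0.736).

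Of the endosomal receptors, Tlr7 was called after OVA in WT lung. It had levels of -1.17, -0.95 and -0.40 in KO OVA lung, -0.33, -0.17 and -0.06 in WT OVA lung, -1.24 and -1.25 in KO saline lung and -1.37, -1.30 and -0.83 in WT saline lung. One KO OVA array, on slide 2, came close to the WT OVA arrays while the other two lay near saline levels. The OVA difference was 0.40 ± 0.24 in KO lung (adjusted p 0.282; slides 0.07 and 0.84) and 0.98 ± 0.21 in WT lung (1.97-fold, adjusted p 0.0186; slides 1.31, 0.97 and 0.66). The WT call was lost without WT OVA 2, WT OVA 3, WT saline 1 or WT saline 2.

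Tlr3 had levels of -2.64, -2.42 and -2.45 in KO OVA lung, -2.27, -2.21 and -2.02 in WT OVA lung, -2.40 and -2.36 in KO saline lung and -2.18, -2.41 and -2.52 in WT saline lung. After OVA the KO arrays were the lower 3 and the WT arrays the upper 3, but neither genotype differed from its own saline arrays by the test. The OVA difference was -0.12 ± 0.13 in KO lung (adjusted p 0.581) and 0.21 ± 0.12 in WT lung (adjusted p 0.242).

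Tlr9 had levels of 0.94, 0.46 and 0.43 in KO OVA lung, 0.68, 0.57 and 0.89 in WT OVA lung, 0.37 and 0.97 in KO saline lung and 0.80, 0.28 and 0.37 in WT saline lung. Its values sorted by slide: the 4 arrays of slide 1, 1 from each group, ran from 0.80 to 0.97 and the other 7 from 0.28 to 0.68. It was the only 1 of the 10 members whose slide 1 arrays all lay apart from the rest. The OVA difference was -0.05 ± 0.24 in KO lung and 0.23 ± 0.21 in WT lung (adjusted p 0.909 and 0.482). With slide as a block the standard errors fell to 0.12 in KO lung and 0.11 in WT lung, and the differences of 0.01 and 0.23 still missed the threshold (adjusted p 0.949 and 0.159).

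Both Toll-like receptor adaptors rose modestly in WT lung. Myd88, whose single probe is printed in 10 spots per array, had levels of 2.70, 2.57 and 2.83 in KO OVA lung, 2.81, 3.10 and 3.04 in WT OVA lung, 2.46 and 2.08 in KO saline lung and 2.38, 2.45 and 2.48 in WT saline lung. Every OVA array lay above every saline array. The OVA difference was 0.43 ± 0.15 in KO lung (adjusted p 0.0912) and 0.55 ± 0.13 in WT lung (1.46-fold, adjusted p 0.0243). The 2 genotypes' intervals overlapped widely, at 0.10 to 0.76 in KO lung and 0.26 to 0.84 in WT lung.

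Ticam1 had levels of -0.65, -0.83 and -0.50 in KO OVA lung, -0.49, -0.45 and -0.62 in WT OVA lung, -0.97 and -1.05 in KO saline lung and -0.85, -0.96 and -1.06 in WT saline lung. OVA arrays again lay above saline arrays in both genotypes, by a small margin. The OVA difference was 0.35 ± 0.12 in KO lung (adjusted p 0.102) and 0.44 ± 0.11 in WT lung (1.36-fold, adjusted p 0.0295). The WT calls of Myd88 and Ticam1 are the least settled of the 7: each was lost with the array median subtracted in place of the 75th percentile, and without any 1 of WT OVA 2, WT OVA 3 and the 3 WT saline arrays. The call of Ticam1 was also lost with only the groups compared in the model (adjusted p 0.058).

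Zbp1, the Z-form sensor, had the widest OVA difference of the 10 members in both genotypes. Its level was 2.80, 2.24 and 3.18 in KO OVA lung, 3.53, 3.72 and 4.27 in WT OVA lung, 0.40 and 0.49 in KO saline lung and 0.47, -0.24 and 0.82 in WT saline lung. The OVA arrays of both genotypes stood well clear of all saline arrays, and the WT OVA arrays stood above the KO OVA arrays. OVA raised Zbp1 by 2.29 ± 0.36 in KO lung (4.9-fold, adjusted p 0.00864; slides 2.32 and 2.77) and by 3.49 ± 0.32 in WT lung (11.2-fold, adjusted p 0.00111; slides 3.79, 3.78 and 2.90). With slide as a block the adjusted p was 0.0272 in KO lung and 0.00457 in WT lung, and the KO call was lost without either of the 2 KO saline arrays.

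**Figure D2:**
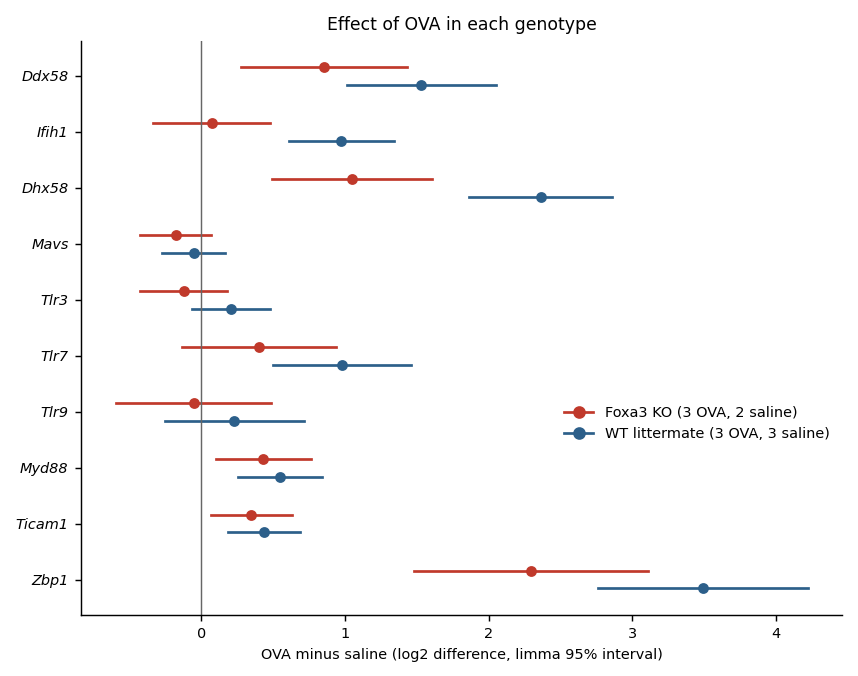
OVA minus saline (x axis, log2 difference with its limma 95% interval) for each member, with KO lung above WT lung in each pair. For Ifih1 the KO point is 0.07 and the WT point 0.98, and the intervals do not overlap, though the test of the difference of the OVA effects did not call it. For Myd88 and Ticam1 the points nearly coincide.

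After OVA, KO lung held less of every member than WT lung in the group means, but no single member passed the test. The differences ran from -1.29 (Dhx58) to -0.10 (Tlr9), with a median of -0.50, beside 0.01 over all genes. By limma 0 of 10 were called, against 0.21% of all genes, and 6 members had an unadjusted p under 0.05 with KO lower (Ddx58, Ifih1, Dhx58, Tlr3, Tlr7 and Zbp1), against 2.96% of all genes. For 7 members (Mavs added to those 6) all KO OVA arrays lay below all WT OVA arrays, which 4.6% of all genes did. This comparison uses the same OVA arrays as the comparisons with saline, so it is not separate evidence of them.

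The widest of these differences were in the helicases and Zbp1. Dhx58 was lower in KO OVA lung by -1.29 ± 0.22 (2.44-fold, adjusted p 0.0755), Ifih1 by -0.84 ± 0.16 (1.79-fold, adjusted p 0.123) and Ddx58 by -0.96 ± 0.23 (1.94-fold, adjusted p 0.271). Zbp1 differed by -1.10 ± 0.32 (2.15-fold, adjusted p 0.522) and Tlr7 by -0.65 ± 0.21 (adjusted p 0.645). The sign was the same within all 3 slides for each of these 5, but the size varied. For Dhx58 it was -1.95, -0.61 and -1.30 on slides 1, 2 and 3, and for Zbp1 it was -1.46, -0.36 and -1.49. Slide 2, which holds the WT OVA array that the third principal component set apart, gave the smallest difference for Ddx58, Dhx58, Tlr7 and Zbp1. Dhx58 passed the threshold under 5 of the alternative settings and Ifih1 under 4, among them the authors' deposited value table, in which 2 of 10 members were called.

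**Figure D3:**
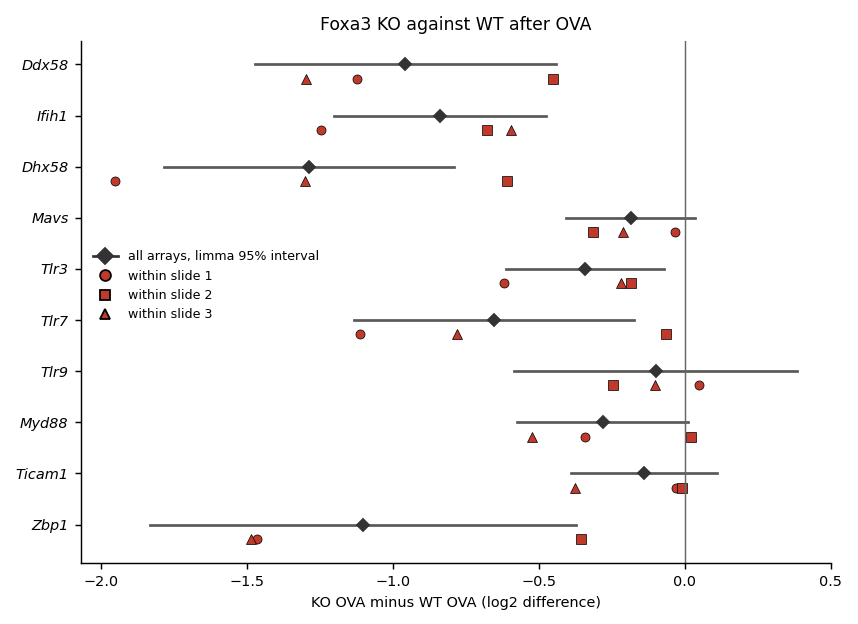
KO minus WT after OVA (x axis, log2 difference) for each member. Diamonds and bars give the estimate over all arrays with its limma 95% interval, and red symbols the difference within each slide; 28 of the 30 within-slide values lie below 0, with Tlr9 on slide 1 (0.05) and Myd88 on slide 2 (0.02) above it.

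After saline, KO and WT lung were close for all members. The differences ran from -0.28 (Ddx58) to 0.18 (Tlr9), with a median of -0.03, beside 0.02 over all genes. By limma 0 of 10 were called, against 0.096% of all genes, and 0 of 10 had an unadjusted p under 0.05 (3.26% of all genes did). For 2 members, Ddx58 and Mavs, both KO arrays lay below all WT arrays, as for 10.7% of all genes. The 95% intervals were wide enough to hold sizeable differences: -0.86 to 0.30 for Ddx58, -0.53 to 0.58 for Dhx58 and -0.72 to 0.91 for Zbp1.

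The test of the difference itself, the OVA effect in KO lung minus that in WT lung, called 0 of 10 members by limma, against 0.00457% of all genes (1 gene). All 10 differences were negative, with a median of -0.45, beside 0.00 over all genes, and 3 had an unadjusted p under 0.05 (1.49% of all genes did so with a negative difference). These were Dhx58 at -1.32 ± 0.33 (unadjusted p 0.00319), Ifih1 at -0.90 ± 0.24 (unadjusted p 0.00453) and Zbp1 at -1.20 ± 0.48 (unadjusted p 0.0355), each with an adjusted p of 1. For Myd88 the difference was -0.12 (95% interval -0.56 to 0.32) and for Ticam1 it was -0.09 (95% interval -0.47 to 0.29). That a member passed in WT lung and not in KO lung is therefore not shown to be a difference between the genotypes.

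The 5 members with more than 1 probe gave the same calls after OVA on each of their probes, with 1 exception, but sizes varied. All 4 Ddx58 probes were called after OVA in WT lung and 0 of 4 in KO lung (p-values adjusted over probes here). Along the transcript from the first probe shown above to the last, with A_52_P385536 at the 3′ end, the OVA difference was 0.68, 0.86, 0.38 and 0.15 in KO lung and 1.21, 1.53, 1.28 and 0.89 in WT lung. The size of the Ddx58 difference in KO lung thus depended on the probe. In the same order, the difference of the OVA effects was -0.53, -0.68, -0.90 and -0.74. Its unadjusted limma p was 0.12, 0.0787, 0.0055 and 0.00333, and no Ddx58 probe was called there. The second of these probes represents Ddx58 in the results above. The junction-spanning Ifih1 probe gave 0.16 ± 0.35 in KO lung and 1.35 ± 0.32 in WT lung (adjusted p 0.806 and 0.0251), like the brighter probe. Both Dhx58 probes were called in both genotypes, but A_51_P363218 was well above background on 3 of 11 arrays only, so its size is not given. The exception was Ticam1: its second probe shares 40 of 60 bases with the first and was not called in WT lung (0.35 ± 0.11, adjusted p 0.0603). Neither of the 2 Tlr3 probes was called.

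**Figure D4:**
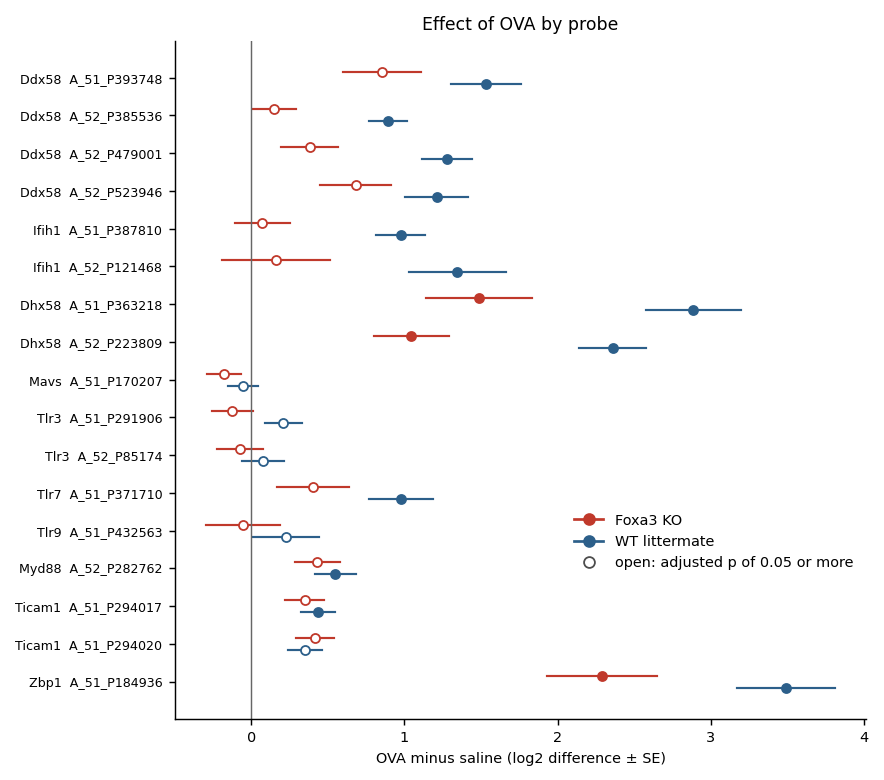
OVA minus saline (x axis, log2 difference ± SE) for each of the 17 probes, with KO lung above WT lung in each pair and filled points where the p-value adjusted over probes is under 0.05. Filled points number 3 in KO lung (2 for Dhx58, 1 for Zbp1) and 12 in WT lung.

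The genes on either side of the sensors were read from lists of pathway members. Most genes given by value were picked for a small p for OVA in WT lung or for the difference of the OVA effects. That choice favours genes with a wider gap between the genotypes than their list as a whole. Beside each count below, the shares over all genes were 6.45% called higher and 1.78% lower in KO lung, and 10.9% higher and 7.91% lower in WT lung. Of 8 measured cytosolic DNA sensors and partners, 5 rose in KO lung (median 0.88) and 8 in WT lung (median 1.51). They include Ifi204, an interferon-inducible DNA-binding protein, at 1.19 ± 0.25 in KO lung and 2.22 ± 0.22 in WT lung, and Ifi205 at 0.77 ± 0.17 in KO lung and 1.89 ± 0.15 in WT lung. Trex1, a cytosolic DNA exonuclease, had a difference of 0.55 ± 0.18 in KO lung (adjusted p 0.092) and rose by 1.35 ± 0.16 in WT lung.

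Among proteins that carry and cut the endosomal receptors, the same 3 were called in both genotypes. Of 8 measured, 3 rose in KO lung and 4 in WT lung. Unc93b1, which escorts Tlr3, Tlr7 and Tlr9 to endosomes, rose by 0.95 ± 0.20 in KO lung and 1.21 ± 0.18 in WT lung. Of the proteases, Ctss rose by 1.61 ± 0.28 in KO lung and 1.74 ± 0.25 in WT lung, and Lgmn by 1.46 ± 0.36 in KO lung and 1.55 ± 0.32 in WT lung. Ctsl, the other protease of the list, named after its values were seen, was not called in either genotype (0.13 ± 0.24 in KO lung and 0.16 ± 0.22 in WT lung). Ap3b1, a sorting adaptor subunit, had differences of 0.02 ± 0.11 in KO lung and 0.13 ± 0.10 in WT lung and was not called.

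Of 10 other measured Toll-like receptors and accessory genes, 1 rose and 1 fell in KO lung, and 5 rose and 1 fell in WT lung. The count that rose in KO lung and the count that fell in WT lung are near the shares over all genes. Cd14, a lipopolysaccharide co-receptor, rose by 1.17 ± 0.18 in KO lung and 1.11 ± 0.16 in WT lung. Tlr5, the flagellin receptor, fell by 0.69 ± 0.13 in KO lung and by 0.54 ± 0.12 in WT lung. Tlr1 had a difference of 1.17 ± 0.48 in KO lung (adjusted p 0.142) and rose by 1.78 ± 0.43 in WT lung, and Ly96, the lipopolysaccharide-binding partner of Tlr4, had differences of 0.27 ± 0.22 in KO lung and 0.56 ± 0.22 in WT lung without a call.

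Downstream of the adaptors, 4 of 25 kinases and factors rose in KO lung, and 9 rose and 1 fell in WT lung, the last a smaller share than over all genes. Irf7, the interferon regulatory factor that Tlr7 and Tlr9 use, rose by 1.22 ± 0.28 in KO lung (adjusted p 0.0328) and by 3.45 ± 0.25 in WT lung (adjusted p 0.000482). It was the only gene of the 25 called between the genotypes after OVA, at -2.45 ± 0.25 (adjusted p 0.00735; slides -2.88, -1.92 and -2.55). Irf5, a relative, rose by 1.30 ± 0.24 in KO lung and 1.39 ± 0.22 in WT lung, and Mlkl, the pore-forming protein of necroptosis, rose by 1.16 ± 0.29 in KO lung and 1.53 ± 0.26 in WT lung. Casp8 had a difference of 0.42 ± 0.18 in KO lung (adjusted p 0.156) and rose by 0.87 ± 0.16 in WT lung.

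The RNA-binding antiviral effectors had the widest gap between the medians of the 2 genotypes among the pathway lists. OVA raised 3 of 12 in KO lung and 11 of 12 in WT lung, with medians of 0.74 and 2.34. The 12 include Isg15, by background a ubiquitin-like protein and not an RNA-binding one. Oas1a, an oligoadenylate synthetase, rose by 1.96 ± 0.28 in KO lung and 3.08 ± 0.25 in WT lung. Oasl2 rose by 0.82 ± 0.20 in KO lung and 2.14 ± 0.17 in WT lung, whereas Ifit1 had a difference of 0.60 ± 0.24 in KO lung (adjusted p 0.133) and rose by 2.41 ± 0.21 in WT lung. Oas2 had a difference of 0.68 ± 0.23 in KO lung (adjusted p 0.0906) and rose by 2.27 ± 0.21 in WT lung. After OVA 3 of the 12 were called lower in KO than in WT lung, against 0.155% of all genes: Ifit1 at -1.66 ± 0.21 (adjusted p 0.0221), Oasl2 at -1.26 ± 0.17 (adjusted p 0.0312) and Ifit3 at -1.43 ± 0.21 (adjusted p 0.0445). The Oas and Ifit genes are families of similar sequence, and cross-hybridisation between their probes was not tested. The test of the difference of the OVA effects called 0 genes in each pathway list, and its smallest adjusted p was 0.828, shared by Irf7 (-2.23 ± 0.37), Ifit1 (-1.82 ± 0.32), Oas2 (-1.59 ± 0.31) and Ifi205 (-1.13 ± 0.22) among others.

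Among interferons, receptors and signal transducers, 3 of 15 measured genes rose in KO lung, and 6 rose and 1 fell in WT lung. Stat2, a signal transducer of the type I receptor, had a difference of 0.68 ± 0.22 in KO lung (adjusted p 0.085) and rose by 1.41 ± 0.20 in WT lung. Irf9, its partner, had a difference of 0.29 ± 0.10 in KO lung (adjusted p 0.104), rose by 0.84 ± 0.09 in WT lung, and was called lower in KO than in WT lung after OVA (-0.65 ± 0.09, adjusted p 0.0357). The probe for Ifnb1, a type I interferon, was well above background on 1 of 3 KO OVA, 2 of 3 WT OVA, 0 of 2 KO saline and 0 of 3 WT saline arrays. Ifng, the type II interferon, rose in both genotypes, by 1.60 ± 0.41 in KO lung and 1.48 ± 0.37 in WT lung. Of 12 regulators of RNA sensing 11 were measured, of which 1 rose in KO lung, near the share over all genes, and 4 rose in WT lung. They included Adar, an RNA-editing enzyme that had a difference of 0.56 ± 0.21 in KO lung (adjusted p 0.117) and rose by 1.35 ± 0.19 in WT lung, and Trim25, the ubiquitin ligase of RIG-I, that had a difference of 0.06 ± 0.14 in KO lung (adjusted p 0.832) and rose by 0.56 ± 0.12 in WT lung. Tnfaip3, which shuts off NF-kappaB signalling, rose by 1.01 ± 0.16 in KO lung and 0.85 ± 0.14 in WT lung. Over the 11 regulators the median difference of the OVA effects was 0.02, beside 0.00 over all genes.

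**Figure D5:**
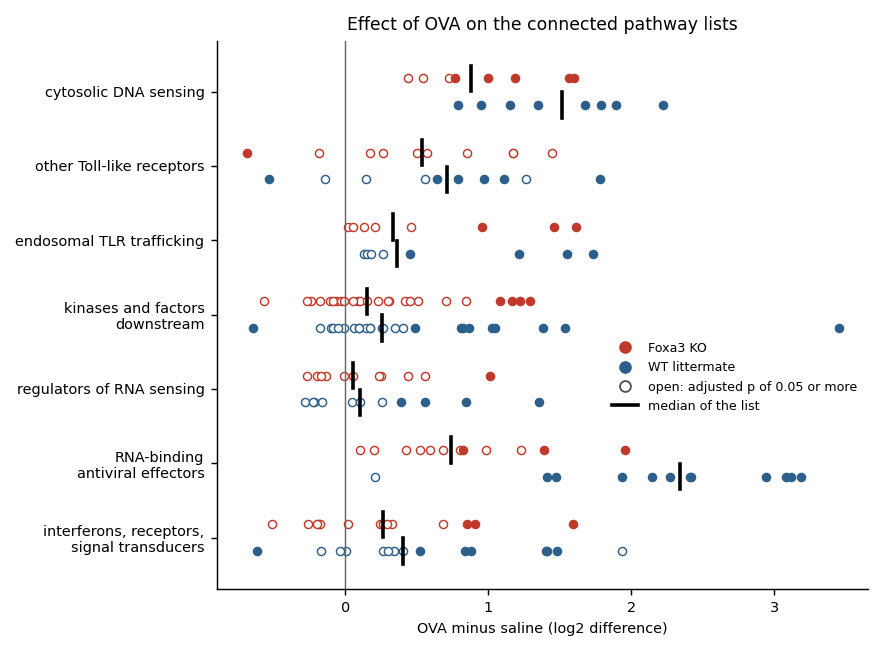
OVA minus saline (x axis, log2 difference) for every measured gene of 7 pathway lists, with KO lung above WT lung in each pair, filled points where the adjusted p is under 0.05 and a black bar at each list's median. The medians of the list of RNA-binding effectors, which also holds Isg15, are 0.74 in KO lung and 2.34 in WT lung, and those of the trafficking proteins 0.34 and 0.36.

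Several sensors are background markers of particular blood cells, so marker lists were set beside the members. Their part in the results was not tested. The 8 markers of plasmacytoid dendritic cells, which carry much Tlr7 and Tlr9, were all well above background on all 11 arrays. Their mean, centred on each gene's mean over the arrays, was -0.11 to 0.00 in KO OVA lung, 0.28 to 0.54 in WT OVA lung, -0.38 to -0.15 in KO saline lung and -0.22 to -0.13 in WT saline lung. OVA raised 1 of the 8 in KO lung and 4 in WT lung, and Bst2, which rose by 0.84 ± 0.21 in KO lung and 1.79 ± 0.19 in WT lung, is itself interferon-inducible. The markers did not move as 1 set, though 0 were called lower in either genotype. Cox6a2 averaged 1.99 in KO OVA, 2.23 in WT OVA, 2.25 in KO saline and 2.84 in WT saline lung. Tcf4 averaged 3.07, 3.14, 3.36 and 3.40 in the same order, so both were lower with OVA. After OVA the plasmacytoid marker means of KO and WT lung did not overlap. Of all single genes, 4.6% had every KO OVA array below every WT OVA array, and no such share was computed for list means. The KO minus WT differences of the 8 markers ran from -0.94 to -0.06 (median -0.47) with 0 called, against 0.21% of all genes. Siglech, the lineage's more specific marker, averaged -5.20 ± 0.04 in KO OVA, -4.35 ± 0.30 in WT OVA (SD, n = 3 each), -5.05 ± 0.07 in KO saline (SD, n = 2) and -4.47 ± 0.15 in WT saline lung (SD, n = 3). It had OVA differences of -0.15 ± 0.17 in KO lung and 0.12 ± 0.15 in WT lung (adjusted p 0.607 and 0.602). All KO arrays lay below all WT arrays for Siglech after saline as well as after OVA (10.7% and 4.6% of all genes).

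Markers of macrophages moved with OVA in both genotypes by like amounts, 6 of 9 called higher in KO lung and 8 of 9 in WT lung, with medians of 1.51 and 1.53. Not all of them rose: the differences ran from -0.46 to 2.71 in KO lung and from -0.52 to 2.74 in WT lung. C1qa rose by 2.51 ± 0.36 in KO lung and 2.53 ± 0.32 in WT lung, and Cd68 had a difference of 1.51 ± 0.42 in KO lung (adjusted p 0.0584) and rose by 1.53 ± 0.37 in WT lung. Their centred mean after OVA was 0.48 to 1.09 in KO lung and 0.37 to 1.00 in WT lung. Of the 7 B cell markers, by background another source of Tlr9, 0 were called in either genotype (medians -0.05 in KO lung and 0.75 in WT lung). Their centred mean after OVA was -0.30 to 0.02 in KO lung and 0.26 to 0.64 in WT lung, without overlap. Of single genes 4.6% lay wholly lower in KO OVA lung, but no such share was computed for list means. The KO minus WT differences of the B cell markers after OVA ran from -0.88 to -0.44 (median -0.61) with 0 of 7 called, against 0.21% of all genes. Cd79a had OVA differences of -0.20 ± 0.37 in KO lung and 0.57 ± 0.33 in WT lung. The B cell mean ran from -1.37 to 0.39 over the WT saline arrays, wider than in the other groups. Of the dendritic cell markers that accompany Tlr3, Xcr1 had OVA differences of -0.37 ± 0.24 in KO lung and 0.07 ± 0.21 in WT lung, and Clec9a had 0.11 ± 0.32 in KO lung and -0.01 ± 0.29 in WT lung. T cell markers were called higher in 1 of 7 cases in KO lung and 5 of 7 in WT lung. Their median KO minus WT difference was 0.01 after OVA and 0.49 after saline (0.16 to 0.86). Of these 7, 0 were called in either comparison, against 0.21% and 0.096% of all genes. Endothelial markers were called lower in 1 of 6 cases in KO lung and 4 of 6 in WT lung, with like medians of -0.56 and -0.61. Epithelial markers were called 0 higher and 0 lower of 8 in KO lung and 2 higher and 0 lower of 8 in WT lung, and eosinophil markers 2 higher and 1 lower of 5 in KO lung and 2 higher and 1 lower of 5 in WT lung. Of 5 neutrophil markers 0 were called in either genotype, and conventional dendritic cell markers were called 3 higher and 0 lower of 8 in KO lung and 3 higher and 0 lower of 8 in WT lung.

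The genes with the most similar course over the 11 arrays were named for each called member by the root mean square difference of centred log2 levels, among 15919 candidates. The points share arrays and slides, and the measure is a description. Genes picked for levels close to a member's must show similar differences, so their values here are not separate evidence. For Ddx58 they were Bst2 (0.14) and Stat2 (0.14), for Ifih1 they were Ifi203 (0.12) and Parp12 (0.13), and for Dhx58 they were Ifit3 (0.13) and Oasl2 (0.15). The Ifih1 pair was called in WT lung and not in KO lung, as Ifih1 was: OVA differences were 0.18 ± 0.14 for Ifi203 and 0.29 ± 0.15 for Parp12 in KO lung (adjusted p 0.447 and 0.235), against 0.97 ± 0.13 and 1.00 ± 0.14 in WT lung. For Zbp1 they were Oas1f (0.26) and Ly6f (0.27), with rises of 1.88 and 2.05 in KO lung and 3.11 and 3.50 in WT lung.

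For Tlr7 the nearest were Fgd3 (0.13) and Parvg (0.14), a guanine nucleotide exchange factor and a parvin of blood cells. For Myd88 the nearest were Vill (0.07), which lies on the same chromosome 9 with 6 coding genes between them, and Pnpt1 (0.09), an RNA-processing exonuclease. Vill had OVA differences of 0.55 ± 0.16 in KO lung (adjusted p 0.064) and 0.54 ± 0.14 in WT lung (adjusted p 0.034). For Ticam1 they were Wdr4 (0.06), not called in either genotype, and Cep76 (0.07), called in both at 0.39 ± 0.10 in KO lung and 0.33 ± 0.09 in WT lung. The small distances of the last 2 members go with small changes: Ticam1 and Myd88 themselves lay 0.14 apart, nearer than Ddx58 and Dhx58 (0.37).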

How the data were processed

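Total RNA of mouse lung was amplified and labelled with Cy3, per the labels. Per the file headers, the deposited scanner files hold background-corrected intensity for each of 43379 spots, read by Feature Extraction. The headers give its version as 9.5.1.1, whereas 9.1 stands in the submitters' processing notes. The authors' deposited value table holds log2 values, whose method is not given in the sources used here. The samples fall into 4 groups by title.

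From the intensity, log2 values minus each array's 75th percentile were computed. Probes were named by RefSeq accession (22951), current symbol (6659), synonym (3109) or the file's own name (8455). A probe stayed if 2 or more arrays called it well above background (32942 probes, 21872 genes), and the brightest probe represents a gene. One limma model (3.58.1, R 4.3.3; prior and residual degrees of freedom 1.95 and 7) with a mean per group was fitted, two-sided, with Benjamini-Hochberg adjustment. It was also run on simulated data with independent noise for each gene and no slide effect. That run therefore cannot show how the model behaves under the slide differences of these arrays. Precision is limited by the small number of arrays. Saturated spots numbered 0 or 1 per array.

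Named are all members, up to 3 genes per pathway list with the smallest p for OVA in WT and up to 2 with the smallest p for the difference of the OVA effects, the 2 nearest genes of each called member and set cell markers; Ctsl, Ifng and Ifnb1 were named after their values were seen, and some genes that the rule names are not reported here. The members, lists and named-gene rules were chosen with earlier results of these data known. Alternatives were other background corrections (normexp, offset 50), scalings, filters, probe summaries, variance priors, array weights, blocks for slide and replicate number, the value table, and arrays left out.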

Additional observations from a re-analysis of the deposited data

How the results depend on the processing

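The OVA differences kept their direction in WT lung for all 10 members under every alternative run. With normexp (offset 50) 0 members were called by limma in either genotype (3 in KO lung and 5 in WT lung at an unadjusted p under 0.05), 0 genes in all were called for OVA, and the median of all genes shifted to -0.232 for KO against WT after OVA and to -0.218 after saline. Without the few spots of bright local background the same correction called 3 in KO lung, 7 in WT lung and 2 between the genotypes after OVA. Without slide 1 the count was 0 in either genotype (2 in KO lung and 7 in WT lung at an unadjusted p under 0.05), with fewer arrays. In KO lung 1 member was called with no filter, with only the groups compared and with slide as a block. A trended robust prior and the authors' value table each called 3 in KO lung and 2 (Dhx58 and Ifih1) between the genotypes after OVA, and array weights called 3, 8 in WT lung, and 2. Array median scaling called 5 and the groups compared alone 6 in WT lung. Leaving out 1 array gave 0 to 3 calls in KO lung, 4 to 7 in WT lung and 0 between the genotypes.

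Over all genes, OVA calls ran from 0 (normexp) to 3519 (array weights) in KO lung, with 446 for the groups compared alone, 716 with a replicate block, 845 with a slide block and 1185 with no filter, and from 0 to 10455 in WT lung, with 43 without slide 1. Calls between the genotypes after OVA ran from 1 to 102. OVA calls in KO lung split into 1411 higher and 390 lower, against 1641 and 1221 in the authors' value table, where WT lung had 2418 and 2678 against 2380 and 1729.

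Replicate numbers did not pair the samples: 15 pairs of the same number correlated at -0.405 to 0.341 (median -0.12), and 15 pairs of the same slide at -0.158 to 0.478 (median 0.266). With a replicate block 2 members were called for OVA in KO lung, 6 in WT lung (Ticam1 was lost, adjusted p 0.0517) and 1 (Dhx58) between the genotypes after OVA, and Tlr7 after saline was 0.072.

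Signs turned only for differences that were not called, and the cause was not tested. For OVA in KO lung, Tlr9 was 0.013 with a slide block and 0.083 without slide 1, and Ifih1 was -0.004 in the authors' table. For KO against WT after saline, normexp gave Dhx58 -0.087 and Myd88 0.014, and without the bright spots Tlr3 0.1 and Tlr7 0.028. Tlr3 there was 0.02 with quantile scaling, 0.019 with the array median, 0.03 with array weights, 0.001 in the authors' table and 0.066 without slide 1. Tlr7 was 0.035 in the authors' table, and without slide 1 Dhx58 was -0.033 and Ticam1 0.044. For the difference of the OVA effects Ticam1 was 0.062 with normexp and 0.017 in the authors' table. Leaving out 1 array gave, for OVA in KO lung, -0.354 to 0.246 for Tlr9 and -0.065 to 0.21 for Ifih1. After saline it gave -0.074 to 0.201 for Ifih1, -0.059 to 0.101 for Dhx58, -0.085 to 0.085 for Tlr3, -0.182 to 0.089 for Tlr7, -0.118 to 0.482 for Tlr9, -0.351 to 0.024 for Myd88, -0.102 to 0.003 for Ticam1 and -0.202 to 0.328 for Zbp1. For the difference of the effects it gave -0.582 to 0.018 for Tlr9 and -0.306 to 0.07 for Myd88.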
